A study of Mus musculus with 10 samples.

Results

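The erythropoietin receptor and the genes read as its STAT5 output were described here in lineage-negative (Lin-) bone marrow (BM) cells of mice. The 10 genes, of 55359 in the deposited table, were Epor, Stat5a, Stat5b, Cish, Socs1, Socs2, Socs3, Pim1, Osm and Erfe. They were chosen by name after results of the same libraries were known, and those results came from the contrast described below, so their levels and fold changes are given as a description with no test. BM was depleted of cells carrying mature lineage markers, and total RNA was sequenced from 5 libraries of Dhx9 f/f mice (WT) and 5 libraries of Dhx9 f/f;MX1 mice (cKO). Both groups carry floxed alleles of Dhx9, which encodes an RNA and DNA helicase. The cKO mice also carry Mx1-Cre, a Cre recombinase under an interferon-responsive promoter, which the study switched on by poly(I:C) injection, and poly(I:C) itself evokes interferon. Whether the WT mice of these libraries received poly(I:C), and the age and sex of the mouse behind each library, were not given in the sources used here. The methods state that mouse sex was random and that replicates are in general individual animals.

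Erythropoietin, made mainly by the kidney, binds its receptor on erythroid progenitors and activates the receptor-bound kinase JAK2, which phosphorylates STAT5A and STAT5B. Phosphorylated STAT5 enters the nucleus and binds DNA elements of the form TTCNNNGAA. Its targets include survival and growth genes and a set of feedback inhibitors of the CIS and SOCS family. Erythroblasts also secrete erythroferrone, the product of Erfe, which lowers hepcidin in the liver and frees iron for haemoglobin.

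The values are FPKM, fragment counts scaled to gene length and library size, in 13789970 to 18717175 fragments per library as recovered from the low values. At that depth 3 fragments in a gene of 1000 bases are worth 0.160 to 0.218 FPKM, so the WT values of Socs2 and the lowest of Erfe rest on few fragments. Dhx9, the targeted gene, went against the labels. Its level was 65.43 to 72.42 FPKM in WT and 130.82 to 156.49 FPKM in the libraries labelled cKO (log2 fold change 1.0; two-sided exact permutation test over the 10 libraries, p = 0.00794, the smallest that 5 against 5 can give). A value for the whole gene does not resolve the floxed exons, and the group is called "labelled cKO" for this reason throughout. Xist, the X inactivation RNA, was at 99.19 to 127.76 FPKM in WT libraries 3 to 5 and at or below 0.09 FPKM in the other 7 libraries, so the WT group mixed libraries with and without it.

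Lineage markers differed with the labels. In bulk RNA, fewer cells of a type and less RNA per cell cannot be told apart. Of 19 erythroid markers, 12 were higher in the libraries labelled cKO and 0 were lower, by the criteria of an adjusted p below 0.05 in limma and a 2-fold or larger difference (all genes: 4.60% of 18742 called higher, 16.8% called lower). The summed erythroid level was 1784 to 3207 FPKM in WT and 5072 to 8424 FPKM in the libraries labelled cKO. No marker of this list was at 0 in any library, and Car1, an erythroid carbonic anhydrase, was at 695 ± 120 FPKM (SD, n = 5) in WT and 2573 ± 868 FPKM (SD, n = 5) in the libraries labelled cKO. Most markers of the other lineages were lower. Among the markers called lower were 4 of 10 neutrophil, 9 of 10 monocyte and dendritic cell, 7 of 7 mast cell and basophil, 7 of 7 megakaryocyte, 4 of 7 B-lymphoid, 5 of 8 T and NK cell, and 6 of 7 stem and progenitor cell genes, and none of these was called higher. Cd34, a progenitor marker, was at 25.6 ± 3.44 and 3.10 ± 2.33 FPKM (SD, n = 5 each). The part of these shifts in the results below was not tested, and the comparison with the erythroid level further on is a description.

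Library 1 of the labelled cKO group stood apart (S100a9, Ngp and Mmp8 are named after their values were seen). Of the 10 neutrophil markers, 5 were above and 5 below every WT library in it. The S100 genes and the secondary granule genes other than Mmp8 were high. S100a9 was at 894.75 FPKM against 48.33 to 93.11 FPKM in WT, and Ngp at 317.58 FPKM against 4.59 to 19.69 FPKM. Mmp8 was at 4.89 FPKM against 4.97 to 13.9 FPKM in WT. In library 3 labelled cKO, S100a9 and Ngp were also above every WT library, at 157.68 and 66.44 FPKM. The primary granule genes were low in library 1 and in the other 4 of its label. Elane was at 183.65 FPKM in library 1 and 27.73 to 247.11 FPKM in the other 4, against 676.58 to 998.51 FPKM in WT. Mpo was at 277.33 FPKM in library 1 and 49.43 to 391.92 FPKM in the other 4, against 973.78 to 1345.98 FPKM in WT. The summed erythroid markers of library 1, at 7078 FPKM, lay among those of the other 4. Values are therefore given below for every library, always in the order of libraries 1 to 5.

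The regions just upstream of the genes are shown for the 3 members in which a STAT5 or a GATA motif was found. Promoter windows of RefSeq, build GRCm38.p6, run from 250 bases before to 50 bases after a transcript start, and 8 of the 10 members had at least 1 window, 11 windows in all. The letters TTCNNNGAA, which read the same on both strands, were in the windows of Cish and Socs3. They occur in 8.30% of all 32851 windows, and 0.457% hold 2 or more, as Cish does. The erythroid GATA form, AGATAA or TTATCT by strand, occurs in 11.2% of windows and, among the members, in that of Epor alone. Each sequence reads 5′ to 3′ on the gene's strand, with the motif in capitals. Those of Epor and Socs3 stop at the base before the start, and that of Cish runs 20 bases past it to hold its motifs.
Cish, chr9:107296409-107296678, plus strand: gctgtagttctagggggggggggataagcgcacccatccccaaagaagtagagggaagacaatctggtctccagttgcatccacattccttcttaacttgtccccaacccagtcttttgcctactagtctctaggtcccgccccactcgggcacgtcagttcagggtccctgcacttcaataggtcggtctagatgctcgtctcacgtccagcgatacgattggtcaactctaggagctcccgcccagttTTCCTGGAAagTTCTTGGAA
Socs3, chr11:117969367-117969616, minus strand: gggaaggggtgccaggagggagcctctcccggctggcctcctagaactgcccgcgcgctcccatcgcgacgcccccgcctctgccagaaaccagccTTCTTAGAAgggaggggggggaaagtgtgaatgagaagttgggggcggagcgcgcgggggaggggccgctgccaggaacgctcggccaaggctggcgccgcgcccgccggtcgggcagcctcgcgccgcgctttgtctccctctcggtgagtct
Epor, chr9:21963577-21963826, minus strand: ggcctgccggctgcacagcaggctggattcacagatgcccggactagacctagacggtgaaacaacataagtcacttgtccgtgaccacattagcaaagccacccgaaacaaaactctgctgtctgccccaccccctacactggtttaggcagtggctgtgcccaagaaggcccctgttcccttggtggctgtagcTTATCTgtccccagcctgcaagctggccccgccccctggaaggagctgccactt
The Cish motifs are TTCCTGGAA at bases 1 to 9 and TTCTTGGAA at bases 12 to 20 after the start, with no overlap between them. The Socs3 motif is TTCTTAGAA, from 154 to 146 bases before the start, and the Epor TTATCT lies 54 to 49 bases before it. A match describes letters in a short window and not a bound site. The windows of Erfe, Socs1, Pim1, Stat5a and Stat5b held neither motif, which says nothing of elements elsewhere.

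**Figure D1:**
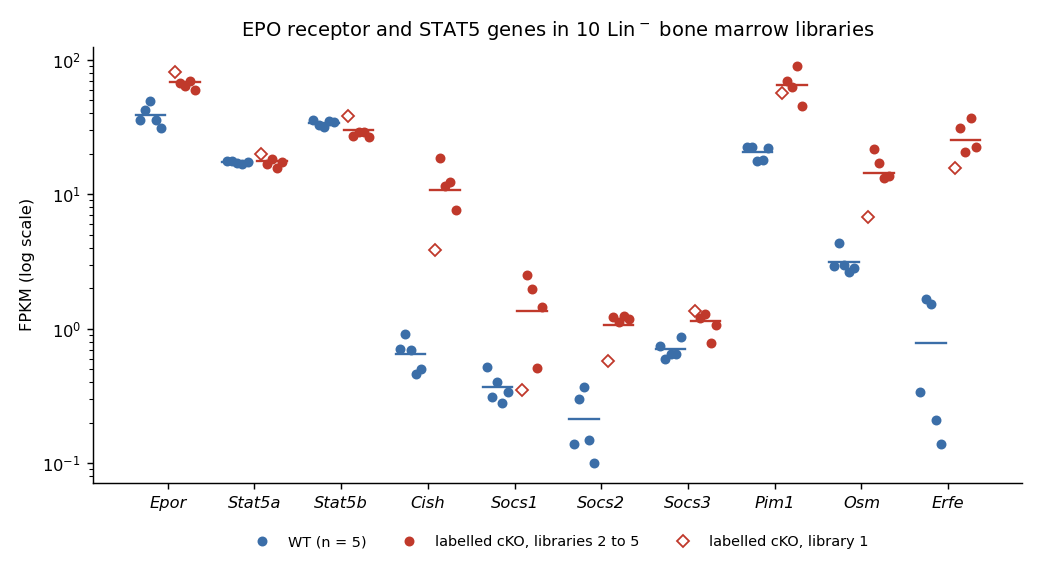
FPKM (log scale) of the 10 genes in each library, with WT in blue, libraries 2 to 5 labelled cKO in red, library 1 labelled cKO as an open diamond, and a line at each group mean (n = 5). Stat5a, Stat5b, Socs1 and Socs3 overlap between the groups, and library 1 is the lowest of its group in Cish, Socs1, Socs2, Osm and Erfe and the highest in Epor, Stat5a, Stat5b and Socs3.

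Of the 10 genes, 6 met the criteria for higher and 0 those for lower (all genes: 4.60% and 16.8%). The 6 were Erfe, Cish, Socs1, Socs2, Pim1 and Osm. The groups did not overlap, with the libraries labelled cKO above WT, in 6 genes, which were the same ones except that Epor takes the place of Socs1 (all genes: 10.6%, and 32.2% when either direction is counted). The contrast chose the genes, so nothing is read from these counts or from the members' median given next. The median log2 fold change was 1.49 over the 10 genes and -0.11 over all genes tested. Fold changes are of log2(FPKM + 0.1), and the added 0.1 shrinks those of weakly expressed genes. Quantile normalization moved the median of all genes from -0.11 to 0.10, so a member near 0, such as Stat5a, has no firm direction.

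The receptor, Epor (ENSMUSG00000006235, GRCm39 chromosome 9, 21870192 to 21874879, minus strand), was already well expressed in WT. Its FPKM was 35.64, 42.2, 49.82, 35.79 and 31.09 in WT and 80.76, 67.71, 63.72, 69.2 and 59.66 in the libraries labelled cKO. The groups did not overlap, and library 1 was the highest of the 10. The group means were 38.9 ± 7.27 FPKM (SD, n = 5) and 68.2 ± 7.94 FPKM (SD, n = 5), with a log2 fold change of 0.82 (SE 0.13) that stayed below the fold criterion. The gene for the ligand, Epo, was listed at 0 in all 10 libraries.

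The transducers differed less than the receptor. Stat5a (ENSMUSG00000004043, chromosome 11, 100750177 to 100776065, plus strand) was at 17.71, 17.69, 17.08, 16.72 and 17.32 FPKM in WT and at 19.85, 16.94, 18.23, 15.81 and 17.46 FPKM in the 5 labelled cKO. The groups overlapped, and the log2 fold change of 0.03 (SE 0.07) turned to -0.02 without library 1, and was also below 0 with an equal sum per library and with a covariate for Xist. Stat5b (ENSMUSG00000020919, chromosome 11, 100671556 to 100741589, minus strand), its neighbour on the chromosome, was at 35.81, 32.74, 31.53, 35.1 and 34.55 FPKM in WT and at 38.3, 26.95, 29.11, 29.12 and 26.59 FPKM in the 5 labelled cKO. Library 1 was above all WT values and the other 4 below all of them. Stat5b made up 66.2 ± 1.27% (SD, n = 5) of the summed Stat5a and Stat5b FPKM in WT and 62.8 ± 2.40% (SD, n = 5) in the libraries labelled cKO, with overlapping ranges.

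None of the feedback inhibitors exceeded 0.91 FPKM in any WT library, and Cish had the largest difference among them. Cish (ENSMUSG00000032578, chromosome 9, 107173225 to 107179983, plus strand) encodes CIS, which competes for docking sites on the receptor, and was at 0.71, 0.91, 0.69, 0.46 and 0.5 FPKM in WT. In the libraries labelled cKO it was at 3.86, 18.48, 11.46, 12.42 and 7.7 FPKM. All 5 were above WT, with library 1 the lowest at 0.323 times the median of the other 4. The means were 0.654 ± 0.181 and 10.8 ± 5.47 FPKM (SD, n = 5 each), and the log2 fold change was 3.71 (SE 0.36).

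Socs1, Socs2 and Socs3 encode inhibitors that bind JAK kinases or receptors and mark them for degradation. Socs2 (ENSMUSG00000020027, chromosome 10, 95219523 to 95253929, minus strand) was at 0.14, 0.3, 0.37, 0.15 and 0.1 FPKM in WT and at 0.58, 1.23, 1.13, 1.24 and 1.18 FPKM in the 5 labelled cKO. The groups did not overlap, libraries 2 to 5 lay close together and library 1 fell between them and WT. The log2 fold change was 1.94 (SE 0.31). Socs1 (ENSMUSG00000038037, chromosome 16, 10600104 to 10603875, minus strand) was at 0.52, 0.31, 0.4, 0.28 and 0.34 FPKM in WT and at 0.35, 2.52, 1.99, 0.51 and 1.45 FPKM in the 5 labelled cKO. Libraries 1 and 4 lay within the WT range and the other 3 above it. Its log2 fold change of 1.36 (SE 0.47) met the criteria with all libraries and lost the call when any of libraries 2, 3 and 5 labelled cKO or any of WT libraries 2 to 5 was left out, with log2 fold changes of 1.07 to 1.38 in those fits. Socs3 (ENSMUSG00000053113, chromosome 11, 117856905 to 117860898, minus strand) was at 0.75, 0.6, 0.65, 0.65 and 0.87 FPKM in WT and at 1.35, 1.21, 1.29, 0.79 and 1.06 FPKM in the 5 labelled cKO. Only library 4 labelled cKO lay within the WT range, and the log2 fold change of 0.61 (SE 0.20) did not meet the fold criterion.

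Pim1 and Osm are STAT5 targets of other kinds. Pim1 (ENSMUSG00000024014, chromosome 17, 29709581 to 29715086, plus strand), a survival kinase, was at 22.34, 22.58, 17.62, 18.12 and 22.05 FPKM in WT and at 56.57, 70.16, 62.75, 89.43 and 45.4 FPKM in the 5 labelled cKO. The groups did not overlap, and library 1 lay within the range of its group, at 0.851 times the median of the other 4. The means were 20.5 ± 2.45 and 64.9 ± 16.5 FPKM (SD, n = 5 each), and the log2 fold change was 1.63 (SE 0.16). Osm (ENSMUSG00000058755, chromosome 11, 4186420 to 4191026, plus strand) encodes oncostatin M, a secreted cytokine of the IL-6 family, and was at 2.93, 4.33, 2.96, 2.63 and 2.81 FPKM in WT. In the libraries labelled cKO it was at 6.81, 21.71, 17.03, 13.15 and 13.71 FPKM. No values overlapped, with library 1 nearest to WT, and the log2 fold change was 2.10 (SE 0.27).

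Erfe (ENSMUSG00000047443, chromosome 1, 91294112 to 91302460, plus strand) had the largest difference of the 10 and the widest spread within WT. Its FPKM was 0.34, 1.67, 1.54, 0.21 and 0.14 in WT and 15.61, 31, 20.81, 36.81 and 22.4 in the libraries labelled cKO. WT libraries 2 and 3 were several times above the other 3, an 11.9-fold range within the group, and the same libraries were also the highest of WT in Epor and Socs2. The means were 0.780 ± 0.758 and 25.3 ± 8.48 FPKM (SD, n = 5 each), a ratio of 32.5 and a log2 fold change of 5.28 (SE 0.56).

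By FPKM, which is per length, the WT order was Epor, Stat5b, Pim1, Stat5a, Osm, Erfe, Socs3, Cish, Socs1 and Socs2. Epor and Stat5b overlapped, as did Pim1 and Stat5a, and every neighbouring pair from Erfe down to Socs2. In the libraries labelled cKO the order was Epor, Pim1, Stat5b, Erfe, Stat5a, Osm, Cish, Socs1, Socs3 and Socs2. Every neighbouring pair overlapped there except Pim1 above Stat5b and Cish above Socs1. Erfe thus lay below Stat5a and Osm in every WT library, while in the libraries labelled cKO its mean was above both.

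Overlapping neighbours may have added to or taken from the counts. Whether strand was used is not given in the sources used here, and 8 of the 10 genes share exon bases with a gene on the opposite strand in GENCODE M39, 5 of them with a partner that was itself tested. The partner of Erfe, Ilkap, was at 13.51 to 16.61 FPKM in WT and 16.51 to 21 FPKM in the libraries labelled cKO. The partner of Stat5a, Stat3, was at 10.18 to 13.69 FPKM in WT and 5.47 to 7.89 FPKM in the libraries labelled cKO. Swsap1, which overlaps Epor, was at 4.84 to 6.51 FPKM over all libraries. The partners of Socs1 and Pim1, Gm46563 and Gm26885, were at or below 0.89 and 0.46 FPKM.

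**Figure D2:**
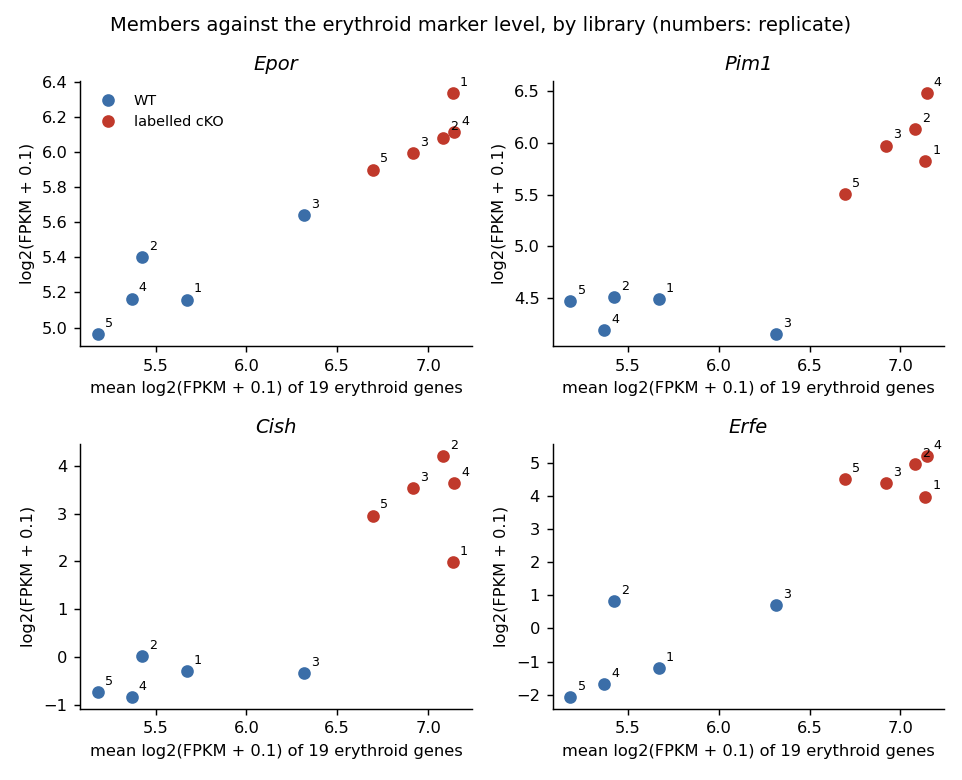
Level of Epor, Pim1, Cish and Erfe (y axis, log2(FPKM + 0.1)) against the mean log2(FPKM + 0.1) of 19 erythroid markers (x axis), 1 point per library with its number, WT in blue and labelled cKO in red. The erythroid mean runs from 5.18 to 6.32 in WT and from 6.70 to 7.14 in the libraries labelled cKO, and no library labelled cKO overlaps WT on either axis of the 4 panels.

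The members were next set against the erythroid level of each library, since most of them are known from erythroid progenitors. The mean log2(FPKM + 0.1) of the 19 erythroid markers was 5.18 to 6.32 in WT and 6.70 to 7.14 in the libraries labelled cKO, a difference of 1.40 between the group means. Relative to it, 5 members did not overlap between the groups. The share over all genes was not computed on this scale, so nothing is read from that count. The erythroid mean itself did not overlap between the groups, so a gene of equal level in both is lower on this scale. Epor minus the erythroid mean was -0.68 to -0.02 in WT and -1.03 to -0.80 in the libraries labelled cKO. On this scale Epor was lower in the libraries labelled cKO, by 0.58, with no overlap. The 19 markers had log2 fold changes from 0.17 (Rhag) to 2.90 (Hbb-bs), and that of Epor, 0.82, lay within this range. The sign of the Epor difference thus depends on which markers are averaged. Erfe and Cish were still higher by 3.88 and 2.31, each with no overlap between groups. The differences of Pim1 (0.22), Osm (0.70), Socs2 (0.54), Socs1 (-0.05) and Socs3 (-0.79) lay within overlapping ranges. Stat5a and Stat5b were lower on this scale, with differences of -1.38 and -1.59 and no overlap. Their own log2 fold changes were 0.03 and -0.19, so these differences mostly carry the 1.40 of the erythroid mean. Nothing about Stat5a or Stat5b is read from them. WT library 3, which had the highest erythroid mean of its group, had the lowest Pim1 of all 10 libraries.

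**Figure D3:**
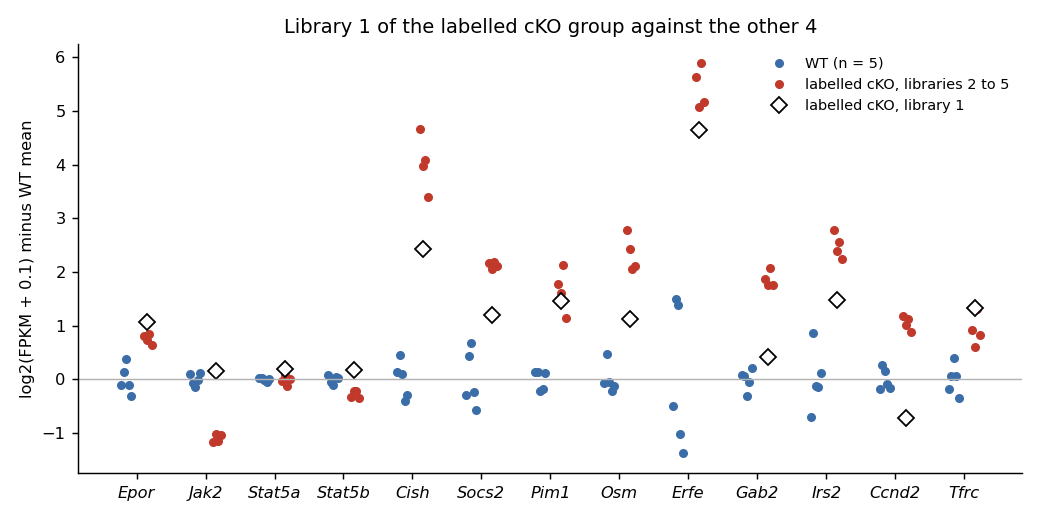
Log2(FPKM + 0.1) minus the WT mean (y axis) for 8 members and 5 related genes, 1 point per library, with WT in blue, libraries 2 to 5 labelled cKO in red and library 1 as an open diamond. Library 1 lies on the WT side of the other 4 in Cish, Socs2, Osm, Erfe, Gab2 and Irs2, among or above WT in Jak2 and Stat5b, and below WT in Ccnd2.

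Outside the 10, Jak2 and Ccnd2 of the pathway parted library 1 from the other libraries of its label, while Tfrc and Kit did not. These 4 genes were chosen after their values were seen. Jak2, the kinase bound to the receptor, was at 38.01 to 45.75 FPKM in WT. In the libraries labelled cKO it was at 46.69, 18.8, 20.82, 19.08 and 20.43 FPKM, so library 1 was above WT and the other 4 were far below it. Its log2 fold change of -0.84 (adjusted p = 0.010, limma) did not meet the fold criterion. Ccnd2, which encodes cyclin D2, was at 14.38 to 19.63 FPKM in WT and at 9.84, 36.74, 32.88, 35.76 and 30.13 FPKM in the 5 labelled cKO, with library 1 below WT and the other 4 above it (log2 fold change 0.70, adjusted p = 0.10, limma). Tfrc, the transferrin receptor, was at 85.58 to 142.35 FPKM in WT and 164.65 to 272.53 FPKM in the libraries labelled cKO. Library 1 was the highest, with library 4 next at 268.23 FPKM. Kit, the stem cell factor receptor, which acts beside Epor in early progenitors, was at 45.9 ± 7.83 and 25.5 ± 5.57 FPKM (SD, n = 5 each). In the libraries labelled cKO it was at 31.11, 18.73, 28.37, 20.27 and 28.87 FPKM.

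Of 82 tested genes in 7 lists of the wider pathway, 5 were higher and 25 lower, and 52 did not meet the criteria (all genes: 4.60% higher, 16.8% lower). Their median log2 fold change was -0.67. The 5 higher genes were Gab2, Irs2, Lif, Hjv and Gdf15. Lif, Hjv and Gdf15 were below the abundance set for naming and are named after their values were seen. Their WT means of 0.016, 0.012 and 0.032 FPKM were below the filter of 0.1 FPKM. These genes were thus tested only through the libraries labelled cKO, and nothing is read from the count of 5. Hjv, the hemojuvelin gene, and Gdf15, a secreted stress factor, were at most 0.10 FPKM in any WT library and at 0.40 to 0.65 and 0.23 to 2.49 FPKM in the libraries labelled cKO. Lif did not exceed 0.31 FPKM in any library.

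In the signalling chain below the receptor, 2 of 22 tested genes were higher and 4 lower (all genes: 4.60% and 16.8%). The lower count is near the share of all genes, so nothing is read from it. The 2 higher genes, Gab2 and Irs2, encode adaptors that dock PI3-kinase. Gab1, a related adaptor of the list named after its values were seen, had a log2 fold change of -0.79 (adjusted p = 0.000953, limma), below the fold criterion, with no overlap between groups. Gab2 was at 11.54, 11.45, 8.77, 10.51 and 12.67 FPKM in WT and at 14.63, 40.21, 37.3, 46.43 and 36.93 FPKM in the 5 labelled cKO (log2 fold change 1.58, SE 0.27, adjusted p = 0.000845, limma). Irs2 was at 3.06, 9.25, 4.59, 4.52 and 5.45 FPKM in WT and at 14.24, 35.26, 26.98, 30.18 and 24.22 FPKM in the 5 labelled cKO (log2 fold change 2.29, SE 0.30, adjusted p = 0.000192, limma). Library 1 was again nearest to WT in both. Plcg2 and Vav1, both used mainly in myeloid and lymphoid signalling, were lower, with log2 fold changes of -2.42 and -1.18. Lyn and Mapk3, the rest of the lower genes and named after their values were seen, had log2 fold changes of -1.09 and -1.16.

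Of 16 tested negative regulators outside the 10, 0 met the criteria for higher and 2 those for lower (all genes: 4.60% and 16.8%), with a median log2 fold change of -0.65. Spred1 and Spred2, inhibitors of the RAS and ERK branch named after their values were seen, were above WT in all 5 libraries labelled cKO without reaching the fold criterion (log2 fold changes 0.42 and 0.46, adjusted p = 0.00127 and 0.00660, limma). Sh2b3, which encodes the JAK2 inhibitor LNK, was at 18.2 ± 2.38 and 7.32 ± 1.65 FPKM (SD, n = 5 each; log2 fold change -1.32, adjusted p = 0.000168, limma), and Socs5 had a log2 fold change of -1.68. Of 14 other STAT5 targets, 0 were called higher and 2 lower, with a median log2 fold change of -0.11, and 6 were above 0. Tfrc, of this list, fell just short of the fold criterion (log2 fold change 0.995, adjusted p = 0.000784, limma), with no overlap between groups. Ccnd1, named after its values were seen, had a log2 fold change of 0.73 (adjusted p = 0.035, limma), with overlap. The 2 called lower were the survival gene Bcl2 (log2 fold change -1.06, adjusted p = 0.00896, limma) and the repressor gene Bcl6 (-2.17). Bcl2l1, the survival gene best known as an erythroid STAT5 target and named after its values were seen, was at 3.34 to 6.48 FPKM in WT and 4.71 to 7.57 FPKM in the libraries labelled cKO. Among the 5 other STAT genes only Stat4 met the criteria, with a log2 fold change of -2.31.

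Receptors of other cytokines that signal through STAT5 were lower, 9 of 10 tested and 0 higher (all genes: 16.8% and 4.60%), with a median log2 fold change of -1.85. Csf3r, the granulocyte colony-stimulating factor receptor, fell from 22.6 ± 2.95 to 1.95 ± 1.69 FPKM (SD, n = 5 each; log2 fold change -4.01). Csf2ra and Csf2rb, chains of the GM-CSF receptor, and Il3ra, of the IL-3 receptor, had log2 fold changes of -2.43, -2.12 and -1.96. Csf2rb has a near copy, Csf2rb2, with which it can share reads. Il2rg alone, the shared gamma chain, did not meet the criteria (9.64 ± 1.59 and 10.8 ± 2.47 FPKM, SD, n = 5 each). In the oncostatin M and IL-6 family, 1 of 8 tested genes was higher and 6 lower (median log2 fold change -1.72). The higher gene, Lif, passed the filter only through the libraries labelled cKO. Il6st, the shared chain gp130, and Il6ra had log2 fold changes of -3.49 and -3.01, and Il6 one of -1.87. Osmr, the oncostatin M receptor chain, did not exceed 0.08 FPKM in any library. Most markers of the non-erythroid lineages were also lower, as given above. The summed monocyte and dendritic cell level was 754 to 1328 FPKM in WT and 5.25 to 215 FPKM in the libraries labelled cKO. The summed neutrophil level was 2729 to 3712 FPKM in WT and 147 to 2599 FPKM in the libraries labelled cKO, highest in library 1. The part of such shifts in the receptor levels was not tested.

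In the list of erythroid signals and hepcidin control, 2 of 7 tested genes were higher and 1 lower, with a median log2 fold change of 0.58. The higher genes, Hjv and Gdf15, passed the filter only through the libraries labelled cKO. Tfr2, a transferrin receptor that associates with the erythropoietin receptor, was at 23.0 ± 3.37 and 34.3 ± 4.04 FPKM (SD, n = 5 each), and Twsg1, a BMP regulator, at 10.3 ± 0.437 and 13.5 ± 3.0 FPKM (SD, n = 5 each). Neither met the fold criterion. Bmp2 was the lower gene (log2 fold change -2.58).

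**Figure D4:**
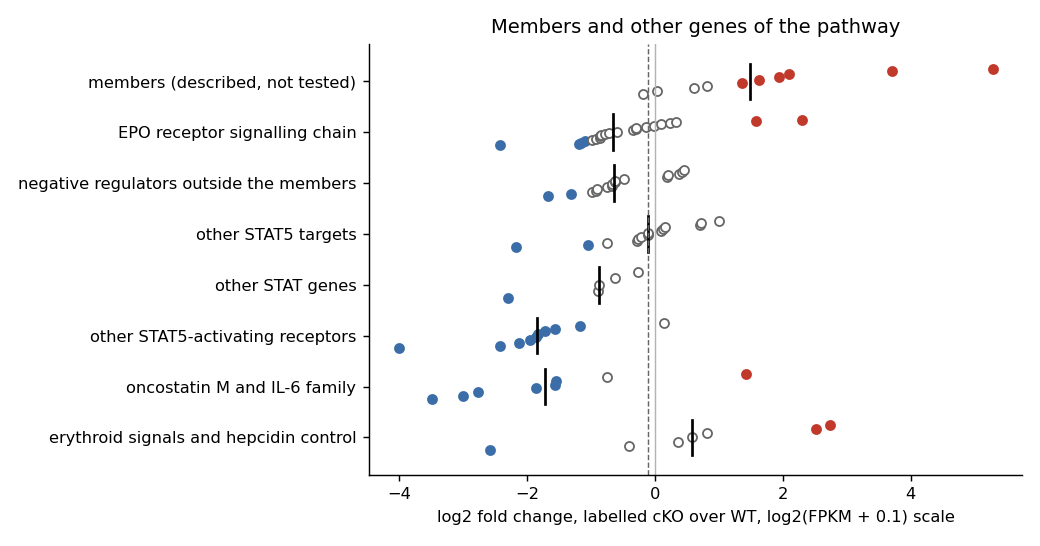
Log2 fold change (x axis, labelled cKO over WT, log2(FPKM + 0.1) scale) of each tested gene in the 10 members and in 7 lists of the pathway, with genes called higher in red, called lower in blue, the rest open, and a black bar at the median of each row. The dashed line marks the median of all genes tested, -0.11. The members' median is 1.49, and that of the 82 genes of the 7 lists is -0.67. The members were chosen with results of this contrast known, so nothing is read from the difference.

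The genes whose levels ran most like a member over the 10 libraries were found among 12326 genes averaging 1 FPKM or more, by Pearson's r of log2(FPKM + 0.1). All points share the difference between the labels, so high values are common, and r is given as a description. Nearest to Epor were Ank1 (0.997), the red cell membrane gene of ankyrin, Ascc3 (0.993) and Fbxo44 (0.993). Nearest to Erfe were Septin8 (0.992), Gm32051 (0.989) and Podxl (0.987), a sialomucin gene that went from a mean of 1.58 FPKM in WT to 106 FPKM in the libraries labelled cKO. Cish ran most like Zfp598 (0.995), Myo1d (0.992) and Nedd4 (0.991). Osm ran most like Cish itself (0.988), then Zfp598 (0.988) and Zdhhc23 (0.986), and both had their lowest value of the group in library 1 and their highest in library 2.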

How the data were processed

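RNA of Lin- BM cells from 5 WT and 5 cKO libraries was compared. Per the submitters' processing notes, cutadapt 1.9.1, HISAT2 2.0.1 and HTSeq 0.6.1 were used, with the build GRCm39. The authors deposited 1 table of FPKM per gene, and its gene lengths, annotation and strand setting were not given in the sources used here. The study's own test was DESeq2 on counts, which FPKM values do not allow. Genes averaging 0.1 FPKM or more were tested on log2(FPKM + 0.1) with limma 3.58.1 (R 4.3.3; eBayes with trend, two-sided, Benjamini-Hochberg), and a call needed both an adjusted p below 0.05 and a 2-fold or larger difference. Groups came from the labels, and all 10 columns were mapped. Gene IDs were matched to symbols and GRCm39 positions of GENCODE M39 (54749 of 55359 matched). Motifs were searched in RefSeq promoter windows (GRCm38.p6), and these coordinates are not comparable with those of GRCm39. Values within 0.2 of whole multiples up to 20 fragments, 95.96 to 96.36% of those examined, gave the depth. No pair of libraries with 1 label agreed within sampling noise (lowest chi-square per degree of freedom 4.65). On simulated data, 200 of 18432 genes were given a log2 difference of 2. Of these, 94.0% were recovered, with 0 of wrong sign, and there were 8 false calls. Recovery was not tested separately for Erfe, Cish, Socs1, Socs2 and Socs3, whose WT means lie below 1 FPKM. It was also not tested separately at the spread of the libraries labelled cKO, so the 94.0% is not read for these members. The members and gene lists were chosen with earlier results of these data known. From each pathway list the text names up to 4 called genes that average 1 FPKM or more and have the largest change, or the 2 most abundant, and for 4 members the 3 genes most like them. Alternatives were other pseudocounts, filters, scalings, a block, a covariate for Xist and leaving out each library.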

Additional observations from a re-analysis of the deposited data

Results flagged for a closer look

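Leaving aside genes picked after their values were seen, 90 groups of 5 libraries were examined (members, Dhx9, and pathway genes and markers named by rule), and 6 held a library far from the other 4, where about 1 in 20, or 4.5, would do so by chance. In library 1 labelled cKO, Socs2 was at 0.58 FPKM against 1.13 to 1.24 in the other 4, Stat5b at 38.3 FPKM against 26.59 to 29.12, Jak2 at 46.69 FPKM against 18.8 to 20.82, and Ccnd2 at 9.84 FPKM against 30.13 to 36.74. Jak2 and Ccnd2 were picked after their values were seen. S100a9 in this library was at 894.75 FPKM against 7.57 to 157.68 FPKM in the other 4, while Elane, at 183.65 FPKM, was within their range of 27.73 to 247.11 FPKM, and the part of such shifts in these values was not tested.

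In WT library 2, Osm was at 4.33 FPKM against 2.63 to 2.96 FPKM in the other 4. In WT library 3, which had the highest erythroid level of WT, the basophil protease genes Prss34 and Mcpt8 were low, at 328.66 FPKM against 671.4 to 722.61 and at 204.94 FPKM against 338.19 to 371.66. In library 5 labelled cKO, the progenitor gene Flt3 was at 5.86 FPKM against 0.37 to 1.79 in the other 4.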

How the results depend on the processing

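Over 21 alternatives the number of members called higher ran from 4 to 8 (main value 6) and the number called lower was 0 in every one. A pseudocount of 1 gave 356 genes higher and 1486 lower and 2 pathway genes higher, and a filter at an average of 1 FPKM gave 462 higher, 1827 lower and 2 pathway genes higher, with Socs1, Socs2 and Socs3 no longer tested. Quantile normalization gave 1581 genes higher, moved the share of calls that were higher from 21.5% to 41.3%, and added Socs3 (log2 fold change 1.11). Adjusted p alone gave 3138 genes higher and 5300 lower, and 14 pathway genes higher and 49 lower. Leaving out each library gave 762 to 948 genes higher, 2892 to 3268 lower, 5 to 6 members higher, and 5 to 6 pathway genes higher with 25 to 28 lower. Among members, Socs1 lost its call with a pseudocount of 1 (0.69), with no filter (1.36), with a covariate for Xist (1.23) and without each of 7 of the 10 libraries in turn, and Socs2 with a pseudocount of 1 (0.77). Of the members, Stat5a alone changed sign, to -0.02 without library 1 labelled cKO, -0.02 with an equal sum per library and -0.01 with the covariate for Xist. The log2 fold change of Epor stayed between 0.73 and 0.93, that of Erfe between 3.93 and 5.66, and that of Cish between 2.70 and 4.03, each lowest with a pseudocount of 1 save Epor.

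The replicate numbers that the labels share were not treated as pairs in the main fit. Correlations of same-numbered deviations ran from -0.01 to 0.12, and 3 of 5 numbers were best with their own. These values do not settle whether the numbers pair the samples. With the replicate block, 857 genes were higher and 3107 lower, 5 members were higher (Socs1 lost its call) and 5 pathway genes higher with 25 lower. Depth limits the genes near 0.1 to 0.4 FPKM, Socs1, Socs2 and Erfe in WT above all, and intervals for counting error were not formed from FPKM.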
